A study of Vitis vinifera with 204 samples.

Results

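The 200 genes described here differed little on average between green grape berries and the first 3 weeks of ripening and were higher at the end of the season, most of them from a low early level. They were chosen from 29971 gene IDs by their values in these data. RPKM, a read count scaled by transcript length and library size, was averaged as log2(RPKM + 1) within each season and then over 3 seasons, for the green berry (all days before veraison), early ripening (days 8 to 22 after veraison) and the last 2 time points of each season. A gene needed 1 RPKM or more in 3 or more libraries, and 150 such IDs on 2 scaffolds were set aside by the rule. Of the 20620 genes left, 15980 differed by less than 1 on the log2 scale between early ripening and the green berry. Among these, the 200 with the largest difference between the last 2 time points and early ripening are the members, so all of them passed the filter on low values by construction. Differences between those 3 spans are therefore given as a description and without a test, except in a season left out of the choice. Thinning arms, which the rule averaged over, were tested within a span.

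Veraison is the point at which a grape berry softens, begins to colour and starts to store sugar, and it divides the green berry from the ripening one. Ripening then continues for weeks as sugar accumulates and acids decline. Near harvest, late ripening grades into over-ripening, in which berries can lose water and the transcriptome keeps changing after most of the sugar has been stored.

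The berries came from Cabernet Sauvignon vines of clone FPS 8 on 5C rootstock in a vineyard near Modesto, California, so all libraries share 1 clone and 1 site. RNA was sequenced from pericarp, since seeds were taken out while pools of 60 berries were ground. Vines carried a severe thinning, with 75% of clusters removed after fruit set, or a moderate thinning, with 50% removed, and unthinned vines are not analysed here. Libraries were made in 3 replicates for 68 cells, a cell being a season, a time point and a thinning, from 12 time points in 2012, 10 in 2013 and 12 in 2014. Replicates are pools from vine blocks, so p-values measure the spread between pools.

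The span after day 22 and before the last 2 time points holds 54 libraries and is called the middle span below. Neither it nor day 0, with 18 libraries, entered the choice of the members, but the middle span lies in time between spans that did. Season was taken from sample titles, and a separate year tag in the labels differed from it for 134 libraries and went with it for 70. RPKM values summed to 817623 to 1105136 per library, and read depth is unknown. In 83 libraries, 11 of 2013 and 72 of 2014, at least 20 of 9114 steadily expressed genes were listed under 0.5 RPKM. With that feature as a covariate 406 genes differed at least 2-fold at a limma adjusted p under 0.05, and 0 of them were members. The feature varied within a cell only in green berries, on days -20 and -6 of 2013 in the 75% arm. Most members were weakly expressed there, so the test could hardly call a member and does not show that members were unaffected. No ID matched the gene table at hand and the files pair none with a name, so genes are given by ID only and no marker of seed or other tissue could be looked up.

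Most members were weakly expressed before late ripening, while 28 averaged over 10 RPKM in early ripening. The median over members of the mean level was 1.75 RPKM in the green berry, 1.19 RPKM on day 0, 2.25 RPKM in early ripening, 7.18 RPKM in the middle span and 15.2 RPKM at the last 2 time points. In early ripening 70 members averaged under 1 RPKM, and 58 did so in the green berry as well. At the last 2 time points the means ranged from 2.95 to 589.55 RPKM, and 12 members exceeded 100 RPKM. Most members thus had a low level early, under 1 RPKM for a minority, and a moderate level late, while a few were abundant throughout.

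The difference between the last 2 time points and early ripening was 1.65 to 5.28 on the log2 scale, with a median of 2.03, against a median of 0.05 over all genes tested. It was at least 4-fold for 107 members, at least 8-fold for 29 and at least 16-fold for 4. The difference of early ripening from the green berry ranged from -0.99 to 0.99 with a median of 0.22, and it was positive for 129 members. Just inside the choice stood VIT_13s0047g01130 with a log2 rise of 1.65, and just outside it VIT_19s0085g00600, also with 1.65, so the lower end of the list is a cut through a continuum. Membership also turned on the settings. With a pseudocount of 0.1, 86 of the 200 stayed. With a bound of 0.5 on the difference of early ripening from the green berry, 121 stayed.

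The name of a set that rises only late holds with a limit, because the rise was under way before the last 2 time points. In early ripening most members were already above day 0. Day 0 minus early ripening had a median of -0.31 on the log2 scale and was negative for 165 members. Summarised as the mean log2(RPKM + 1) of the 200 members, the level in 2012 was 1.47 on day -28, 1.38 on day 0, 1.52 on day 11 and 1.85 on day 21. It then reached 2.51 on day 32, 2.90 on day 42, 3.56 on day 53 and 3.44 on day 63, and 4.74 on day 74 and 4.51 on day 80. In that season the increase was not even in time, with a pause after day 53 and the largest gain by day 74.

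In 2013 the mean log2 level was 1.42 on day 0, 1.68 on day 8, 1.86 on day 15, 2.38 on day 22, 2.95 on day 29, 3.27 on day 36 and 3.63 on day 43. In 2014 it was 1.57 on day 0, 1.49 on day 8, 1.69 on day 14, 1.95 on day 21, 2.62 on day 28, 3.12 on day 42, 3.54 on day 49, 3.94 on day 56 and 4.24 on day 63. Each value is a mean of 6 libraries, and the SD between them was 0.04 to 0.49. The mean over all genes tested stayed between 3.05 and 3.20 log2 units from day 8 on in all seasons.

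**Figure D1:**
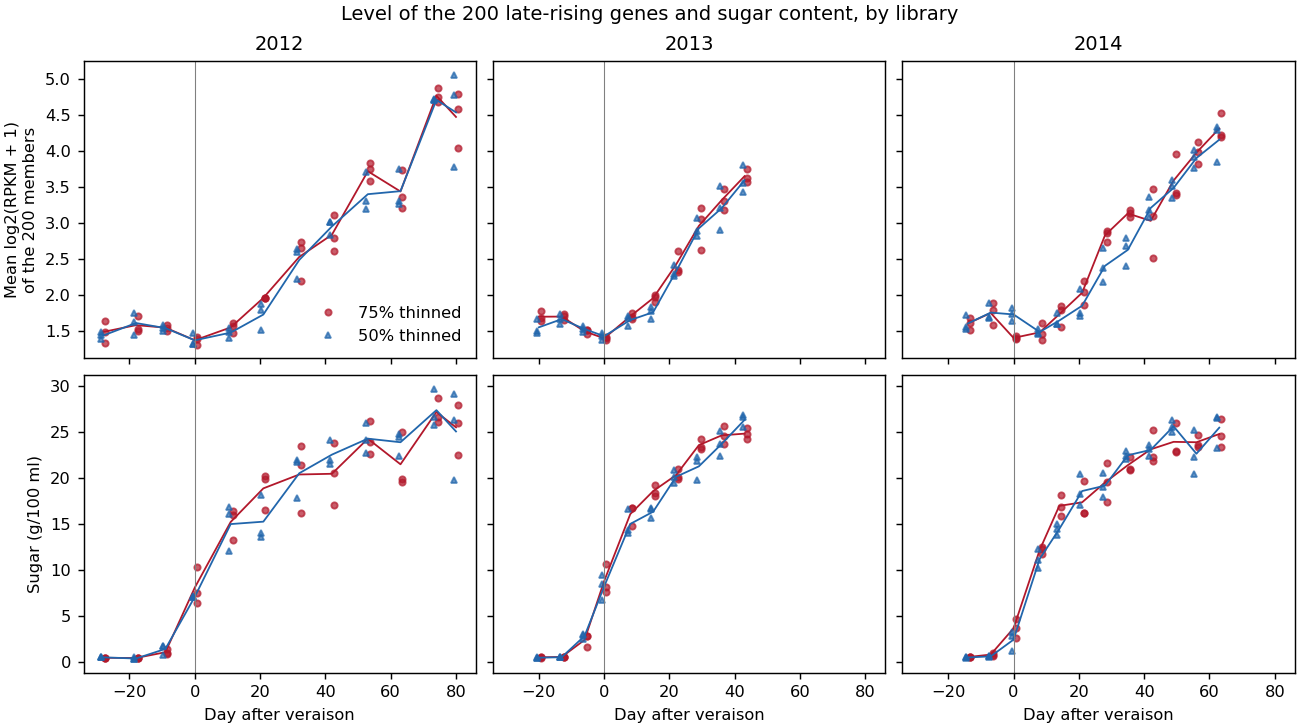
Mean log2(RPKM + 1) of the 200 members (upper panels) and sugar content in g/100 ml (lower panels) against day after veraison, with 1 point per library and lines through the means of the 75% and the 50% thinned arms. The members' level is lowest around day 0, at 1.38 in 2012, and highest at the end of each season, at 4.74 on day 74 of 2012.

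The seasons ended at different levels. The mean log2 level over the last 2 time points was 4.62 ± 0.36 in 2012, 3.45 ± 0.26 in 2013 and 4.09 ± 0.23 in 2014 (SD, n = 12 libraries each). The median rise of a member over early ripening was 2.71 in 2012, 1.35 in 2013 and 2.12 in 2014 on the log2 scale. It was smallest in 2013 for 196 members, and largest in 2012 for 162 and in 2014 for 38. Season 2013 was also the shortest, with its last time point on day 43, where the level of 3.63 lay close to 3.56 on day 53 of 2012 and 3.54 on day 49 of 2014. In 199 members the rise was positive in each season, which the rule favoured by ranking genes on its mean over these seasons. The share over all genes was not computed.

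Sugar content did not place the libraries of different seasons on 1 course. Day 43 of 2013, day 63 of 2014 and day 80 of 2012 had similar mean sugar, at 25.5, 25.1 and 25.2 g/100 ml. The members' mean log2 levels there were 3.63, 4.24 and 4.51, in the order of days since veraison. These libraries entered the choice of the members, and season and day cannot be told apart in this comparison. Other time points gave other orders. Day 53 of 2012 and day 49 of 2014 had 24.2 and 24.7 g/100 ml, with levels of 3.56 and 3.54. Day 42 of 2012, day 42 of 2014 and day 43 of 2013 had 21.5, 23.1 and 25.5 g/100 ml. Levels there were 2.90, 3.12 and 3.63, in the order of sugar. Whether the level followed sugar or days across seasons was not tested.

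Libraries of the last day of 2012 stood apart from each other. On day 80 the 75% arm gave mean log2 levels of 4.58, 4.05 and 4.79 at 26.0, 22.5 and 27.9 g sugar per 100 ml, in replicates 1, 2 and 3. The 50% arm gave 4.78, 3.78 and 5.06 at 26.2, 19.8 and 29.1 g per 100 ml. In each arm replicate 2 was lowest in both measures. On day 74 all 6 libraries lay between 4.69 and 4.87. When the members were chosen again without replicate 1, 2 or 3, 185, 184 and 189 of the 200 stayed.

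Time of the rise differed between members. A member was taken to be at 50% of its rise on the first day after day 22 on which its mean reached the midpoint between early ripening and the last 2 time points of that season. In 2012 this was day 32 for 34 members, day 42 for 38, day 53 for 91, day 63 for 10 and day 74 for 27. In 2014 it was day 28 for 53 members, day 35 for 54, day 42 for 49, day 49 for 32 and day 56 for 12. In 2013, with 1 time point in the middle span, it was day 29 for 162. The list therefore holds early and late starters, seen best in 2012 and 2014. Days up to day 22 were not searched, so these counts cannot show a rise within early ripening.

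The level in the middle span corresponded to 6.53% to 102% of the whole rise, with a median of 56.1%, and 130 members had reached at least 50% of it. The highest time point fell within the last 2 for 191 members in 2012, 189 in 2013 and 193 in 2014, and in all seasons for 179. The rule favoured this by choosing members on their level there, and the share over all genes was not computed. In 2012 the highest time point was day 74 for 145 members and day 80 for 46, whereas the last day itself was highest for 172 members in 2013 and 156 in 2014. In 2012 the level of 181 members was higher on day 74 than on day 63, with a median step of 1.30 on the log2 scale. This was the largest median step between neighbouring days of any season after day 21. Day 74 entered the choice and day 63 did not, so the rule favoured a step up. The mean over all genes tested was 3.09 log2 units on day 63 and 3.16 on day 74.

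**Figure D2:**
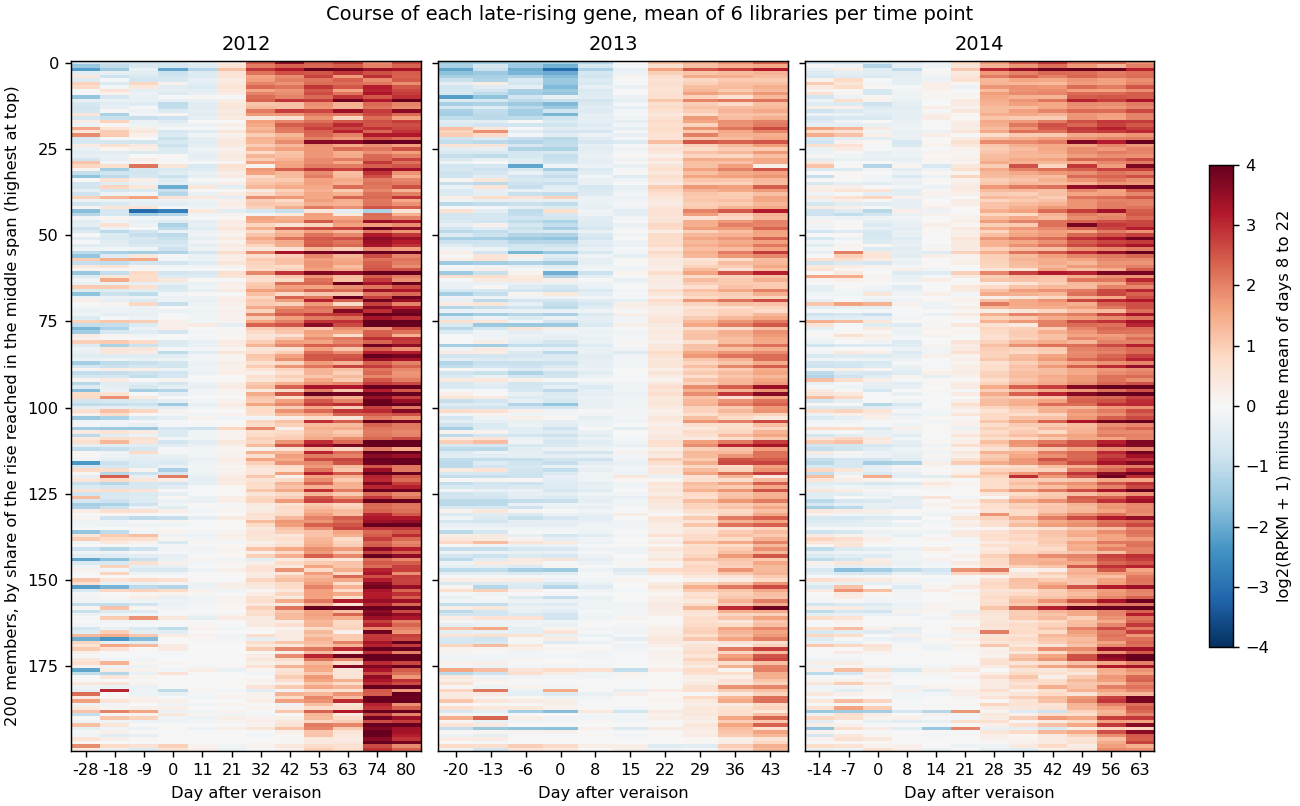
Each row is a member, ordered by the share of its rise reached in the middle span with the highest share at the top, and each column is a time point in days after veraison. Colour gives the mean log2(RPKM + 1) of 6 libraries minus the member's mean in early ripening of that season. In 2012, 145 of the 200 members are highest on day 74, which entered the choice of the members.

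VIT_07s0005g00870 had the largest rise of all members. Its level ran from a lowest value of 0.0789 over a median of 0.743 to a highest of 9.88 RPKM in 48 green libraries, and from 0.0562 over 0.193 to 0.563 RPKM in 18 libraries of day 0. It was 0.096, 0.435 and 1.13 RPKM (lowest, median, highest) in 48 libraries of early ripening, 0.551, 7.14 and 58.9 RPKM in the middle span, and 3.11, 62.3 and 317 RPKM in 36 libraries of the last 2 time points. No library of the last 2 time points overlapped with early ripening, which the rule favoured by ranking genes on this difference. A single green time point, day -18 of 2012, held the high green values. Its log2 rise was 6.97 in 2012, 3.44 in 2013 and 5.44 in 2014.

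The next ranks followed a like course at other levels. VIT_04s0043g00840, the second by rise, had medians of 1.84 RPKM in the green berry, 1.20 RPKM in early ripening, 14.4 RPKM in the middle span and 49.7 RPKM at the end. VIT_18s0086g00520 was listed at 0 in the median green library and reached a median of 19.3 RPKM at the end. VIT_12s0057g01110 had medians of 0.569, 1.04, 11.5 and 43.6 RPKM in the same 4 spans. VIT_04s0023g02200 was already at a median of 10.4 RPKM in the green berry and 14.3 RPKM in early ripening, and reached 104 RPKM in the middle span and 197 RPKM at the end.

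The most abundant members at the end of the season had smaller rises from a high start. VIT_10s0003g03300 had a median of 182 RPKM in green libraries, 136 RPKM in early ripening and 536 RPKM at the last 2 time points. VIT_07s0031g02630 had 73.1, 126 and 525 RPKM. VIT_11s0016g00470 had 240 RPKM in the green berry, 146 RPKM in early ripening, 167 RPKM in the middle span and 457 RPKM at the end. The last of these had its lowest medians after day 0. In 2012 its 6 libraries held 650 to 854 RPKM on day 74, against 148 to 310 RPKM on day 63, without overlap. Of these days only day 74 entered the choice of the members.

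Timing separated 2 other members. VIT_02s0087g00910 was among those earliest at 50% of the rise, and its median in 2012 was 18.9 RPKM on day 21, 67.9 RPKM on day 32 and 160 RPKM on day 53, before 89.8 RPKM on day 74. VIT_15s0046g00710 was among the last, with a median of 0.505 RPKM on day 42, 4.00 RPKM on day 53, 2.11 RPKM on day 63, 50.5 RPKM on day 74 and 69.2 RPKM on day 80. Its lowest library of day 80, at 5.88 RPKM, lay below the highest of day 63, at 8.50 RPKM.

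**Figure D3:**
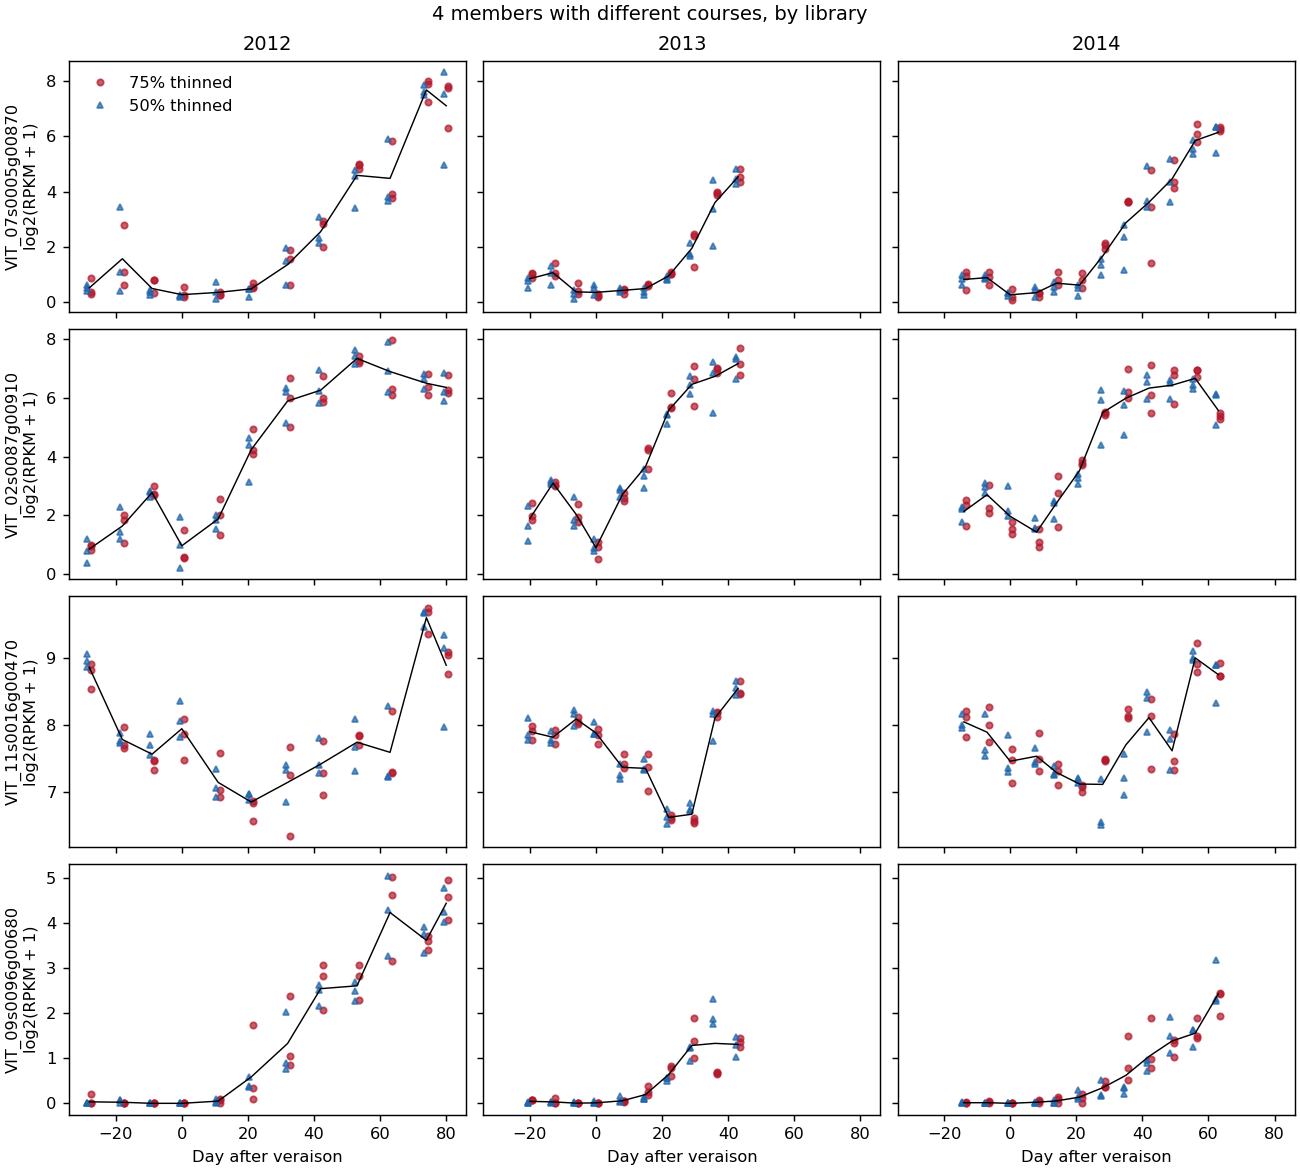
log2(RPKM + 1) of 4 members against day after veraison, with 1 point per library, circles for 75% and triangles for 50% thinned, and a line through the mean of 6 libraries. In 2012 VIT_07s0005g00870 is highest on day 74, VIT_02s0087g00910 is lower on day 74 than on day 53, VIT_11s0016g00470 is lower after day 0 than in the green berry and at the end, and VIT_09s0096g00680 is near 0 until after veraison.

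The first comparison on libraries outside the choice set the middle span against day 0. In limma's test, 149 members were at least 2-fold higher in the middle span at an adjusted p under 0.05, in a table in which 5.77% of 20770 genes were, and 0 members were lower, against 11.5% of all genes. At an unadjusted p under 0.05, 191 members were higher, against 39.2% of all genes, and 2 lower, against 45.7%. The median log2 difference was 1.56 over the members and -0.05 over all genes, and 197 members were positive. With a pseudocount of 5 in place of 1, 77 members passed, against 2.97% of all genes. In bulk pericarp, more RNA per cell and a larger share of the cells that hold it cannot be told apart.

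VIT_02s0087g00910 had a lowest, median and highest level of 20.1, 75.1 and 249 RPKM in the middle span, against 0.157, 1.21 and 6.97 RPKM on day 0. The groups did not overlap, and the difference was 5.10 log2 units (SE 0.14, limma adjusted p = 1.84e-71). VIT_04s0023g02200 had 28.9, 104 and 348 RPKM in the middle span, against 3.60, 9.49 and 14.5 RPKM on day 0, again without overlap, with a difference of 3.34 (SE 0.10, limma adjusted p = 3.85e-68). In the other direction VIT_11s0016g00470 had 80.5, 167 and 359 RPKM, against 139, 229 and 326 RPKM on day 0, and these groups overlapped. Its difference was -0.50 (SE 0.07, limma adjusted p = 5.78e-10), which is short of the 2-fold bound.

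The second comparison stayed inside the middle span, with days 53 and 63 against 32 and 42 in 2012 and days 42 and 49 against 28 and 35 in 2014. In limma's test, 36 members were at least 2-fold higher on the later days, where 0.361% of all genes were, which is 75 genes. On the later days 0 members were lower, against 0.53% of all genes, and at an unadjusted p under 0.05 188 members were higher, against 31.4% of all genes, and 0 lower, against 22.3%. The median log2 difference was 0.64 over the members and 0.02 over all genes, and 199 members were positive. Without 2012, 20 members passed, against 0.4% of all genes, and with a pseudocount of 5, 6 did, against 0.0818%.

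VIT_07s0005g00870 had 9.66, 24.6 and 58.9 RPKM (lowest, median, highest) on the later days of 2012, against 0.551, 2.94 and 7.50 RPKM on the earlier days. In 2014 it had 1.72, 17.9 and 35.3 RPKM on the later days, against 0.982, 3.30 and 11.8 RPKM on the earlier ones. The groups were apart in 2012 and overlapped in 2014, and the difference over both seasons was 2.17 log2 units (SE 0.16, limma adjusted p = 1.72e-24). VIT_09s0096g00520 was listed at 0 in every green library and every library of day 0. It had a median of 9.92 RPKM on the later days of 2012, against 0.669 RPKM on the earlier ones, and a difference over both seasons of 1.90 log2 units (SE 0.09, limma adjusted p = 1.17e-38).

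**Figure D4:**
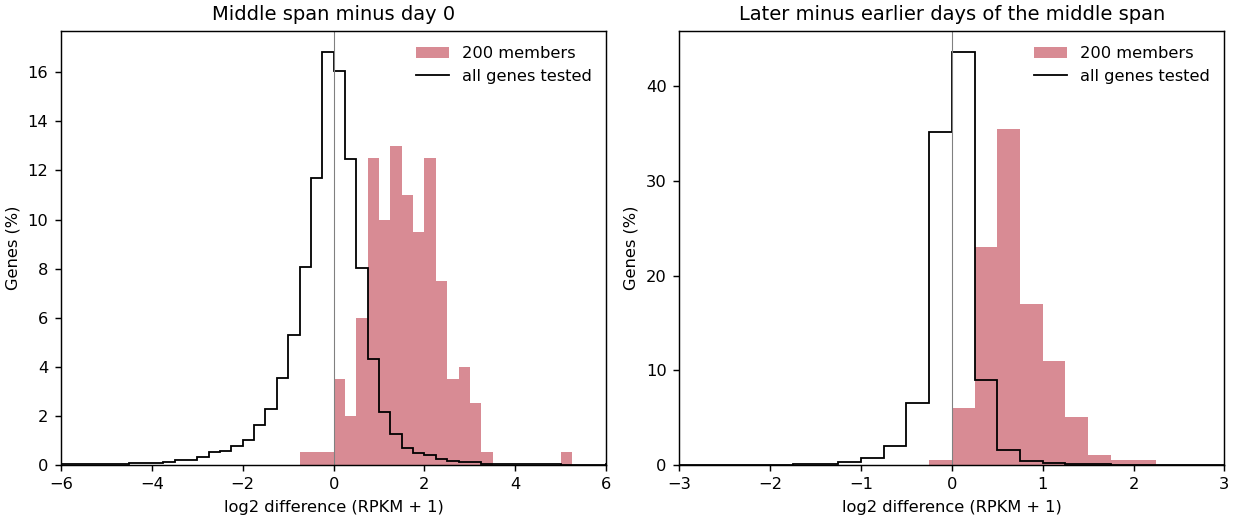
Share of genes (%) by log2 difference in bins of 0.25, for the 200 members (filled) and all 20770 genes tested (line). The members' medians are 1.56 for the middle span minus day 0 and 0.64 for its later minus its earlier days, while the medians of all genes are -0.05 and 0.02.

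The size of the step inside the middle span differed between seasons for some members. In limma's test of the difference, 19 members stepped less and 2 stepped more in 2014 than in 2012, where 4.16% and 1.99% of all genes did. The median step was 0.53 in 2014 and 0.73 in 2012 on the log2 scale, but the days compared were about 14 days apart in 2014 and about 21 in 2012. VIT_18s0001g11520 stepped by 0.22 in 2014 and by 2.26 in 2012, a difference of -2.03 (SE 0.40, limma adjusted p = 0.000345). VIT_16s0050g01150 stepped by 2.01 in 2014 and by 0.57 in 2012, a difference of 1.44 (SE 0.26, limma adjusted p = 0.000111). With replicate 3 left out 55 members and 8.83% of all genes stepped less in 2014, with replicate 1 left out 6 members and 0.987% did, and with replicate 2 left out 9 members and 0.91% did. With median ratio scaling 16 members stepped less and 3 more, where 2.9% and 3.5% of all genes did, so the balance over all genes turned with the scaling.

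No difference between severe and moderate thinning passed the test for a member. At the last 2 time points 0 members differed between the 75% and the 50% arm in limma's test, where 0.0193% of all genes were higher and 0.616% lower in the 75% arm. The 0.616% became 0.0241% with the covariate for low-listed genes, 0.0193% without replicate 3, 0.246% without replicate 1 and 0.00963% without 2013. On day 36 of 2013 every library of the 75% arm had many low-listed genes and no library of the 50% arm did. Thinning and that feature cannot be told apart on that day, and the covariate was estimated in green berries only. The median log2 difference was 0.07 and 160 members were positive, and at an unadjusted p under 0.05 there were 12 members higher, against 1.41% of all genes, and 5 lower, against 3.29%. In the middle span 0 members differed, where 0% of all genes were higher and 0% lower, with a median of 0.08, 175 positive, and 26 members at an unadjusted p under 0.05, all higher, against 0.77% of all genes. A p that misses the threshold does not show that the arms were alike.

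Among the named members VIT_12s0057g01110 had the smallest p in the middle span, with a difference of 0.54 log2 units (SE 0.13, limma adjusted p = 0.547). At the last 2 time points VIT_09s0096g00520 had 0.35 (SE 0.11, limma adjusted p = 0.155). Over all members the smallest p there was that of VIT_01s0011g02260, with 0.31 (SE 0.09, limma adjusted p = 0.062). The arms were farthest apart on days 28 and 35 of 2014. There the members' mean log2 level was 2.83 ± 0.08 and 3.14 ± 0.05 in the 75% arm, against 2.41 ± 0.23 and 2.63 ± 0.20 in the 50% arm (SD, n = 3 each). On those days sugar was 19.5 and 21.4 g/100 ml in the 75% arm, against 19.1 and 22.4 g/100 ml in the 50% arm. Differences of the thinning effect between seasons passed limma's test for 0 members in either span. In the middle span 0% of all genes passed for each pair of seasons, and 24 members at most had an unadjusted p under 0.05 in 1 direction, for a larger effect in 2014 than in 2012, against 5.95% of all genes. At the last 2 time points 0.0915% of all genes had a higher and 1.16% a lower effect in 2013 than in 2012. There 0.0578% had a higher effect in 2014 than in 2012, and 1.12% a higher effect in 2014 than in 2013, with at most 8 members at an unadjusted p under 0.05, for a larger effect in 2014 than in 2012, against 1.92% of all genes.

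Seasons were compared at the days of the middle span that lay nearest, at which season and ripening stage cannot be told apart. Days 28 and 42 of 2014 were set against days 32 and 42 of 2012. In limma's test 4 members were at least 2-fold higher in 2014, against 0.231% of all genes, and 4 were lower, against 2.04%. With the covariate for low-listed genes, a feature of all 72 libraries of 2014, 2 members were higher and 4 lower, against 0.544% and 0.332% of all genes. That covariate was estimated in green berries of 2013 only, so its adjustment of ripening levels is uncertain. The median log2 difference was 0.20, and 142 members were positive. VIT_05s0077g01150 had 0.650, 2.17 and 34.4 RPKM in 2014 (lowest, median, highest), against 0.132, 0.746 and 1.72 RPKM in 2012. These ranges overlapped, and the difference was 1.57 (SE 0.23, limma adjusted p = 1.06e-08).

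Lower in 2014 were 3 neighbours on 1 scaffold of chromosome 9, by the numbers in their IDs. VIT_09s0096g00680 had 0.115, 0.543 and 2.68 RPKM in 2014, against 0.701, 3.32 and 7.42 RPKM in 2012, with a difference of -1.24 (SE 0.13, limma adjusted p = 4.48e-16). VIT_09s0096g00660 and VIT_09s0096g00720 had differences of -1.15 and -1.15 (limma adjusted p = 1.75e-13 and 1.28e-12). The ranges of the 2 seasons overlapped for each of the 3. Over the 54 libraries of the middle span their levels correlated pairwise with Pearson's r of 0.984 to 0.991. The files and labels do not say how reads shared between similar neighbours were assigned, so their separate levels are uncertain.

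Day 29 of 2013 was set against day 32 of 2012. In limma's test 17 members were at least 2-fold higher in 2013, against 1.04% of all genes, and 0 were lower, against 0.761%, with 112 higher and 9 lower at an unadjusted p under 0.05, against 31.4% and 11% of all genes. The median log2 difference was 0.44, and 165 members were positive. VIT_18s0001g11520 had 3.56, 4.53 and 8.51 RPKM in 2013, against 0.198, 0.477 and 1.27 RPKM in 2012, without overlap, and a difference of 1.96 (SE 0.40, limma adjusted p = 3.21e-05). VIT_12s0034g00500, with the largest difference at 2.50 (SE 1.02, limma adjusted p = 0.0474), holds values listed at 0 beside replicates above 5 RPKM, so its level is uncertain. Mean sugar was 22.4 g/100 ml in 2013 and 20.4 g/100 ml in 2012 on these days, and its part in the difference was not tested.

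Day 28 of 2014 was set against day 29 of 2013. In limma's test 2 members were at least 2-fold higher in 2014, against 0.337% of all genes, and 4 were lower, against 2.24%. With the covariate for low-listed genes 0 members were higher and 3 lower, against 0.472% and 0.144% of all genes. Here too the covariate was estimated in green berries of 2013 only. The median log2 difference was -0.32, and 169 members were negative, while mean sugar was 19.3 g/100 ml in 2014 and 22.4 g/100 ml in 2013. VIT_00s0333g00040 had 2.89, 6.44 and 8.50 RPKM in 2014, against 12.9, 21.7 and 27.7 RPKM in 2013. The groups did not overlap, and the difference was -1.61 (SE 0.20, limma adjusted p = 7.93e-12). Higher in 2014 was VIT_05s0077g01150, with 0.947, 5.21 and 34.4 RPKM, against 1.69, 2.15 and 4.04 RPKM in 2013, ranges that overlapped, and a difference of 1.25 (SE 0.33, limma adjusted p = 0.00261).

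The choice itself was carried from 2 seasons to the season left out. Chosen without 2012, without 2013 or without 2014, the list shared 146, 172 and 167 genes with the 200. For the list chosen without 2012, limma's test called 184 of 200 higher and 1 lower at the last 2 time points than in early ripening of 2012, against 11% and 11.3% of all genes. Without 2013 the counts in 2013 were 142 higher and 0 lower, against 2.52% and 6.82%, and without 2014 the counts in 2014 were 195 higher and 0 lower, against 7.36% and 8.06%. The median log2 differences in the left-out season were 2.47 in 2012, 1.29 in 2013 and 2.04 in 2014. At an unadjusted p under 0.05, 191 genes of the list were higher in 2013, against 37.4% of all genes, and 197 in 2014, against 46.3%, with 0 lower in either.

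Libraries of the same season, day and thinning differ in sugar, and the members' levels were set against it within such cells. This test was added after the values were seen. In the middle span limma's test gave 117 members higher with more sugar, where 27.8% of all genes were, and 8 lower, where 12.7% were. The median slope was 0.08 log2 units per g/100 ml over the members and 0.01 over all genes. With median ratio scaling 107 members were higher and 11 lower, against 19.2% and 18.9% of all genes.

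These calls were lost without 2012. Without that season 0 members and 0.00481% of all genes were higher with more sugar, while the median slope of the members was 0.07 and 177 were positive, against 168 with all seasons. At an unadjusted p under 0.05 there were then 29 members, or 14.5%, against 12.4% of all genes. Without replicate 1, 0 members and 0% of all genes passed, and 48 members were at an unadjusted p under 0.05, or 24%, against 13.1% of all genes. Without the 2 libraries farthest from the median sugar 74 members were higher, against 16.3% of all genes, and without replicate 2 68 were, against 16.7%. The 3 neighbours VIT_09s0096g00660, VIT_09s0096g00680 and VIT_09s0096g00720 had negative slopes in the middle span, at -0.17, -0.15 and -0.14 (limma adjusted p = 0.000446, 0.000959 and 0.00317).

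**Figure D5:**
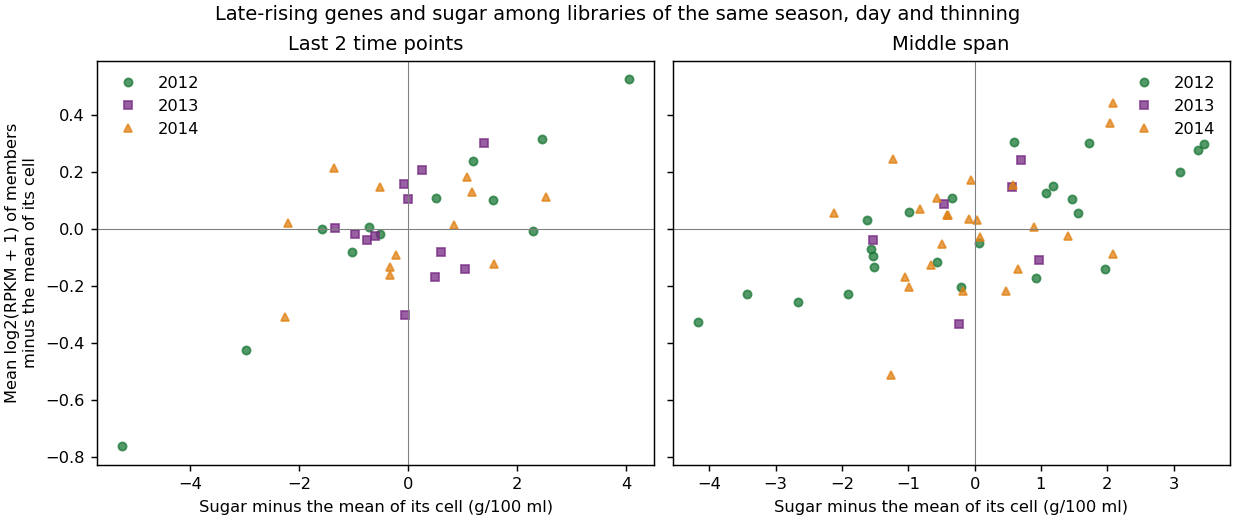
Mean log2(RPKM + 1) of the members against sugar in g/100 ml, each as the difference of a library from the mean of its cell of season, day and thinning, with 1 point per library and 1 symbol per season. The widest spread in sugar is among 2012 libraries, from -5.24 to 4.05 g/100 ml at the last 2 time points.

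What the members share beyond the rule was limited to what IDs and levels show. By ID number, 25 members lay within 5 IDs of another on the same scaffold, in 12 groups, of which 1 held 3 members, and no such count was made for other genes. By chromosome the list held from 0.550 members per 100 genes tested on chromosome 11 to 1.48 on chromosome 9, with 1.42 on chromosome 15 and 1.40 on chromosome 18. In the middle span a member's mean correlation with the other members over 54 libraries had a median of 0.543 and ranged from -0.00383 to 0.696, and these libraries share days and seasons. The median SD between replicates of a cell was 0.23 in the green berry, 0.23 in early ripening, 0.38 in the middle span and 0.40 log2 units at the last 2 time points. On this scale the pseudocount compresses differences at low levels, so the SDs of spans at different levels are not comparable.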

How the data were processed

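The deposited table holds RPKM values per gene, which the authors computed from the reads with TopHat2 2.0.6 and Cufflinks 2.0.2, per the submitters' processing notes. The sources used here do not give the settings, genome build or annotation. Libraries were not strand-specific, per the labels' protocols, so overlapping antisense genes cannot be told apart. Read depth is unknown, so no counting interval was computed.

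From the deposited RPKM, log2(RPKM + 1) of 20770 genes was tested with limma 3.58.1 in R 4.3.3, with 1 mean per cell of season, time point and thinning, an intensity trend of the prior variance and Benjamini-Hochberg adjustment over all genes at 0.05. Stage and season calls also required a log2 difference of 1. Differences on this scale understate the change of genes near 1 RPKM. Scripts were tested on simulated data, and summaries used Python 3.11.15.

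The members and lists were chosen with earlier results of these data known. Genes named are ranks 1 to 5, 200 and 201, the 3 highest at the last 2 time points, the first and last at 50% of the rise in 2012, and for each contrast up to 2 called members in each direction. Others named, such as the third neighbour on chromosome 9, were chosen after their values were seen. Alternatives were other pseudocounts, no filter, 2 scalings, the covariate for low-listed genes, left-out replicates and seasons, a replicate block, listed zeros left out and no intensity trend.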

Additional observations from a re-analysis of the deposited data

Results flagged for a closer look

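By limma's test of the difference between seasons, the step inside the middle span was smaller in 2014 than in 2012 for 19 members and larger in 2014 for 2. Over all genes 4.16% stepped less and 1.99% more in 2014, or 2.9% and 3.5% with median ratio scaling. The members with the larger step were VIT_16s0050g01150 and VIT_08s0007g05830. The earlier and later days were not equally far apart in the 2 seasons.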

How the results depend on the processing

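Of 323 counts of members under an alternative, 274 stayed within 1.5 times the reported count. Of 298 values of named members 247 kept their call, 51 lost it and 0 changed direction. Only members called under the reported settings entered these values, mostly those with the largest differences. A call could thus only be kept or lost, and a change of direction was unlikely. A reported count of 0 that stayed at 0 was taken as unchanged, and many reported counts were 0. Leaving out the intensity trend changed no count of members. With a pseudocount of 0.1, 69 members passed within the middle span, 16 were higher in 2014 than 2012, 42 were higher in 2013 than 2012, 19 were lower in 2014 than 2013, and the step difference gave 1 higher and 8 lower. With a pseudocount of 5 these were 6, 0 (and 0 lower), 6 and 2 (and 1 higher), while 77 passed for the middle span against day 0, 2 for thinning at the end, and 63 in 2013 for the list chosen without it. Shares of all genes moved as well. With a pseudocount of 0.1 they were, in the order given, 0.977%, 1.26%, 3.52%, 4.1%, 2.02% and 4.01%. With a pseudocount of 5 they were 0.0818%, 0.0578% (and 0.905% lower), 0.279% and 0.997% (and 0.116% higher). With that pseudocount 2.97% passed against day 0, 0.0385% were higher and 0.534% lower for thinning at the end, and 1.1% passed in 2013. Thinning at the end gave 1 with each scaling, 2 higher and 1 lower without 2012 and 1 without 2014, and in the middle span 1 without 2013. At the end, 0.679% and 0.761% of all genes were lower with the scalings, 1.15% without 2012 and 0.953% without 2014. At most 0.053% were higher. In the middle span without 2013, 0.00963% were higher and 0.00963% lower. Quantile normalization gave 2 lower in 2014 than 2013, against 1.89% of all genes. The covariate for low-listed genes gave 2 and 0 higher in 2014 than 2012 and 2013, against 0.544% and 0.472%. Without 2012, 20 passed within the middle span, against 0.4% of all genes. Leaving out 1 replicate gave 1 to 7 higher in 2014 than 2012, 0 to 1 lower in 2013 than 2012, 0 to 3 higher and 3 to 13 lower in 2014 than 2013, and 1 to 2 higher and 6 to 55 lower steps. Shares of all genes were, in the same order, 0.212% to 0.351%, 0.703% to 0.862%, 0.193% to 0.602% and 1.93% to 2.34%. For the steps they were 0.597% to 2.32% and 0.91% to 8.83%. Leaving out 1 replicate also gave 0 to 94 members higher and 0 to 14 lower with sugar in the middle span. Without the 2 libraries farthest in sugar these were 74 and 4, and without 2012 both were 0. The cause of these shifts was not tested.

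Replicate numbers did not pair the libraries, since libraries with the same number in both arms correlated with a median r of 0.03 and 35 of 102 pairs passed 0.1. With the replicate block 149 members passed for the middle span against day 0, and the slope on sugar gave 4 lower. Of the 200 members, 86 stayed with a pseudocount of 0.1 and 121 with a bound of 0.5 on the early change. In 8 members, 58 values are listed at 0 beside replicates of at least 5 RPKM, and 197 stayed without these values. Low levels before veraison limit the fold changes, since most members lie near the pseudocount there.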
